A study of Mus musculus with 4 samples.

Results

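The Il6 family cytokines and their signalling genes were followed across the cells of the mouse left ventricle as 7 of the 31253 genes counted: the ligands Il6 and Lif, the receptor chains Il6ra, Il6st, Osmr and Lifr, and the feedback inhibitor Socs3. Members were taken by their gene symbols, and their UMIs (unique molecular identifiers, counts of captured transcript molecules) were summed per library over the cells of each class. The 7 genes had been picked with their values in HFpEF and NC libraries already known, so differences between the diets and between the classes are described for them without a test. Of the 7 genes, 6 passed the filter on low counts in capillary ECs (endothelial cells) and in artery ECs, 5 passed it in vein ECs and in mural cells, and Lif passed it nowhere.

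The study asked how the loss of the lipoprotein receptor SR-B1 (Scarb1) from endothelium acts in heart failure with preserved ejection fraction (HFpEF). Its single-cell data are 4 libraries of RFP-positive cells sorted from the left ventricle, 2 labelled NC (Chow diet) and 2 labelled HFpEF (a high-fat diet, HFD, plus L-NAME, which blocks nitric oxide synthases). All mice carried a tamoxifen-inducible Cre under the Cdh5 promoter, Cdh5-CreER, and a tdTomato reporter that Cre switches on, so the sort takes cells in which Cdh5-driven Cre had acted. By the study's design every mouse also carried floxed Scarb1, on 1 allele or on both (Scarb1 fl/+ or Scarb1 fl/fl). The labels do not say which library is which. The paper compared 4 groups in its single-cell data, both genotypes on each diet, and there are 4 libraries. The 2 libraries of a diet are therefore probably the 2 genotypes and not replicates. The SEs and p-values between the diets would then take a genotype difference as spread between replicates. Diet and genotype cannot be told apart for a difference that 1 library carries. The mouse age and the number of mice per library are not given in the labels, and a p-value below measures the spread between these libraries only.

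As background, Il6 is a secreted cytokine that binds its receptor chain Il6ra and then gp130, the shared signalling chain encoded by Il6st, while Lif acts through Lifr with gp130 and oncostatin M through Osmr with gp130. Engaged gp130 activates JAK kinases, which phosphorylate STAT3, and STAT3 switches on Socs3, whose product binds gp130 and the kinases and shuts the signal down. Endothelial cells are known to make Il6 when inflamed, and, because they carry little Il6ra themselves, to respond to Il6 largely with the shed, soluble form of that receptor.

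On GRCm38, Il6 spans chr5:30013114-30019981 on the plus strand, Lif chr11:4257557-4272514 (plus), Il6ra chr3:89864059-89913196 (minus), Il6st chr13:112464070-112510086 (plus), Osmr chr15:6813577-6874969 (minus), Lifr chr15:7090614-7197489 (plus) and Socs3 chr11:117966079-117970047 (minus). In the annotation (GENCODE vM21) 1 of the 7, Il6ra, is overlapped by another gene, the antisense gene Gm42809, which had 10 UMIs in all ECs. A UMI of these 3′ libraries counts a transcript of the whole gene, so no exon is singled out.

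The promoters of the ligand and of the inhibitor whose levels are followed most closely, 250 bases before to 50 after the start site (RefSeq, GRCm38.p6, read along the gene's own strand), were searched on both strands for letters that STAT3 and the inflammatory factors bind. Capitals mark the matches, in Il6 (chr5:30012864-30013163, plus strand) and in Socs3 (chr11:117969317-117969616, minus strand).
Il6: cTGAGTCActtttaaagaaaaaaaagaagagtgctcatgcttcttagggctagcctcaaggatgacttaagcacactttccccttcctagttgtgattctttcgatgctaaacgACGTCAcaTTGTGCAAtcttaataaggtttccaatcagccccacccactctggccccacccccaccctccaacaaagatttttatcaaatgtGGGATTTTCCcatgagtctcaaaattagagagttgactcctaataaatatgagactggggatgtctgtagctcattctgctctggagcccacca
Socs3: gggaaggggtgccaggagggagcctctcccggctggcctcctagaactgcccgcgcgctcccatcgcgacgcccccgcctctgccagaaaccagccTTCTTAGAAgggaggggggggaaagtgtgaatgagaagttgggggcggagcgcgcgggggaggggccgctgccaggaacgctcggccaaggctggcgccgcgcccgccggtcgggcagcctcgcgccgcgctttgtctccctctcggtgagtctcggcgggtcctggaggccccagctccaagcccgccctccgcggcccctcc

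In the Il6 promoter the capitals mark, in order, an AP-1 element (TGANTCA) at position -249 from the start, a cAMP response element core (TGACGT, on the other strand) at -136, a C/EBP element (TTGCNNAA, on the other strand) at -128 and an NF-kB element at -44. In the Socs3 promoter they mark the match to the STAT element, TTCNNNGAA, at -154. Among all 32851 promoter windows of that length in the table, 8.30% hold the STAT letters, 7.81% the AP-1 letters, 10.8% the C/EBP letters, 7.51% the cAMP response element core and 4.51% the NF-kB element. The same search found an AP-1 match in the Lif window at -228 and in the Osmr window at 4, and none in the windows of Il6ra, Il6st and Lifr. No match overlapped another, and a match shows the letters only.

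The 4 libraries were unequal. After the cell filter 7123 and 6695 NC cells and 5454 and 20882 HFpEF cells remained, with a median of 3754 and 4127 UMIs per NC cell against 1736.5 and 1619 per HFpEF cell. HFpEF library 2 stood apart in its number of cells, in its share of hemoglobin-rich cells (1.41% against 0.119% to 0.257%) and, for Il6, in its capillary ECs. Between 10 and 42 cell barcodes were shared by each pair of libraries, 166 in all. Levels are therefore given as CPM (a gene's UMIs scaled to the total UMIs of its class in the same library). Shares of cells are given after cells were thinned to 1000 UMIs. Cells with fewer UMIs were left out of every thinned result. In capillary ECs 4908 of 5099 and 4623 of 4780 NC cells were kept, against 3093 of 3641 and 10459 of 13273 HFpEF cells. A larger part of the HFpEF cells was thus left out.

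Cells were put into classes by marker genes, none of them a member. The vessel classes were 26793 capillary ECs, 3759 artery ECs, 504 vein ECs, 137 endocardial ECs and 104 lymphatic ECs. Beside them stood 1428 mural cells, named by pericyte and smooth muscle markers, and 123 fibroblasts. The 8 endothelial markers together reached 6738 to 7654 CPM in capillary ECs and 4312 to 5492 CPM in vein ECs. In NC 1, NC 2, HFpEF 1 and HFpEF 2 the endocardial class held 31, 39, 13 and 54 cells. Only 1, 2, 1 and 0 of these had no UMI of a fibroblast marker. By clusters, 133 of its cells fell with the lymphatic ECs. The part of fibroblast RNA in the endocardial levels was not tested. Of the mural cells, 1108 also held endothelial markers, which summed to 3857 to 4933 CPM there, in the reach of vein ECs. In the mural cells with few endothelial markers the sum was 511 to 829 CPM. The class is therefore given in 2 parts where it matters. In sums over a class, fewer cells that make a transcript and less transcript per cell cannot be told apart.

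Il6, the ligand itself, was highest in fibroblasts and vein ECs and low in capillary ECs. In vein ECs it stood at 151 and 133 CPM in NC libraries 1 and 2 and at 231 and 218 CPM in HFpEF libraries 1 and 2. Artery ECs had 22.2 and 36.3 CPM in NC against 44.3 and 73.9 CPM in HFpEF. Capillary ECs had 5.44 and 6.39 CPM in NC against 8.31 and 36.0 CPM in HFpEF, from 116, 141, 59 and 1100 UMIs. Vein ECs were thus above artery ECs, and artery ECs above capillary ECs, within each of the 4 libraries.

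Fibroblasts with few endothelial markers, 92 cells, had 186, 247, 1047 and 611 CPM of Il6 in the same order of libraries, from 11 to 120 UMIs each, and their range overlapped that of vein ECs. Mural cells with few endothelial markers had 30.3, 85.2, 36.1 and 7.32 CPM, from 2 to 21 UMIs each, a spread that covers the levels of artery and capillary ECs. Endocardial ECs, which line the chamber, had 0 Il6 UMIs in 3 libraries and 6 in HFpEF library 2 (30.3 CPM), and lymphatic ECs had 0, 1, 0 and 7. With so few cells, 0 UMIs in endocardial ECs allow up to 15.6, 12.2 and 85.6 CPM, so a level like that of capillary ECs was not detectable there.

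**Figure D1:**
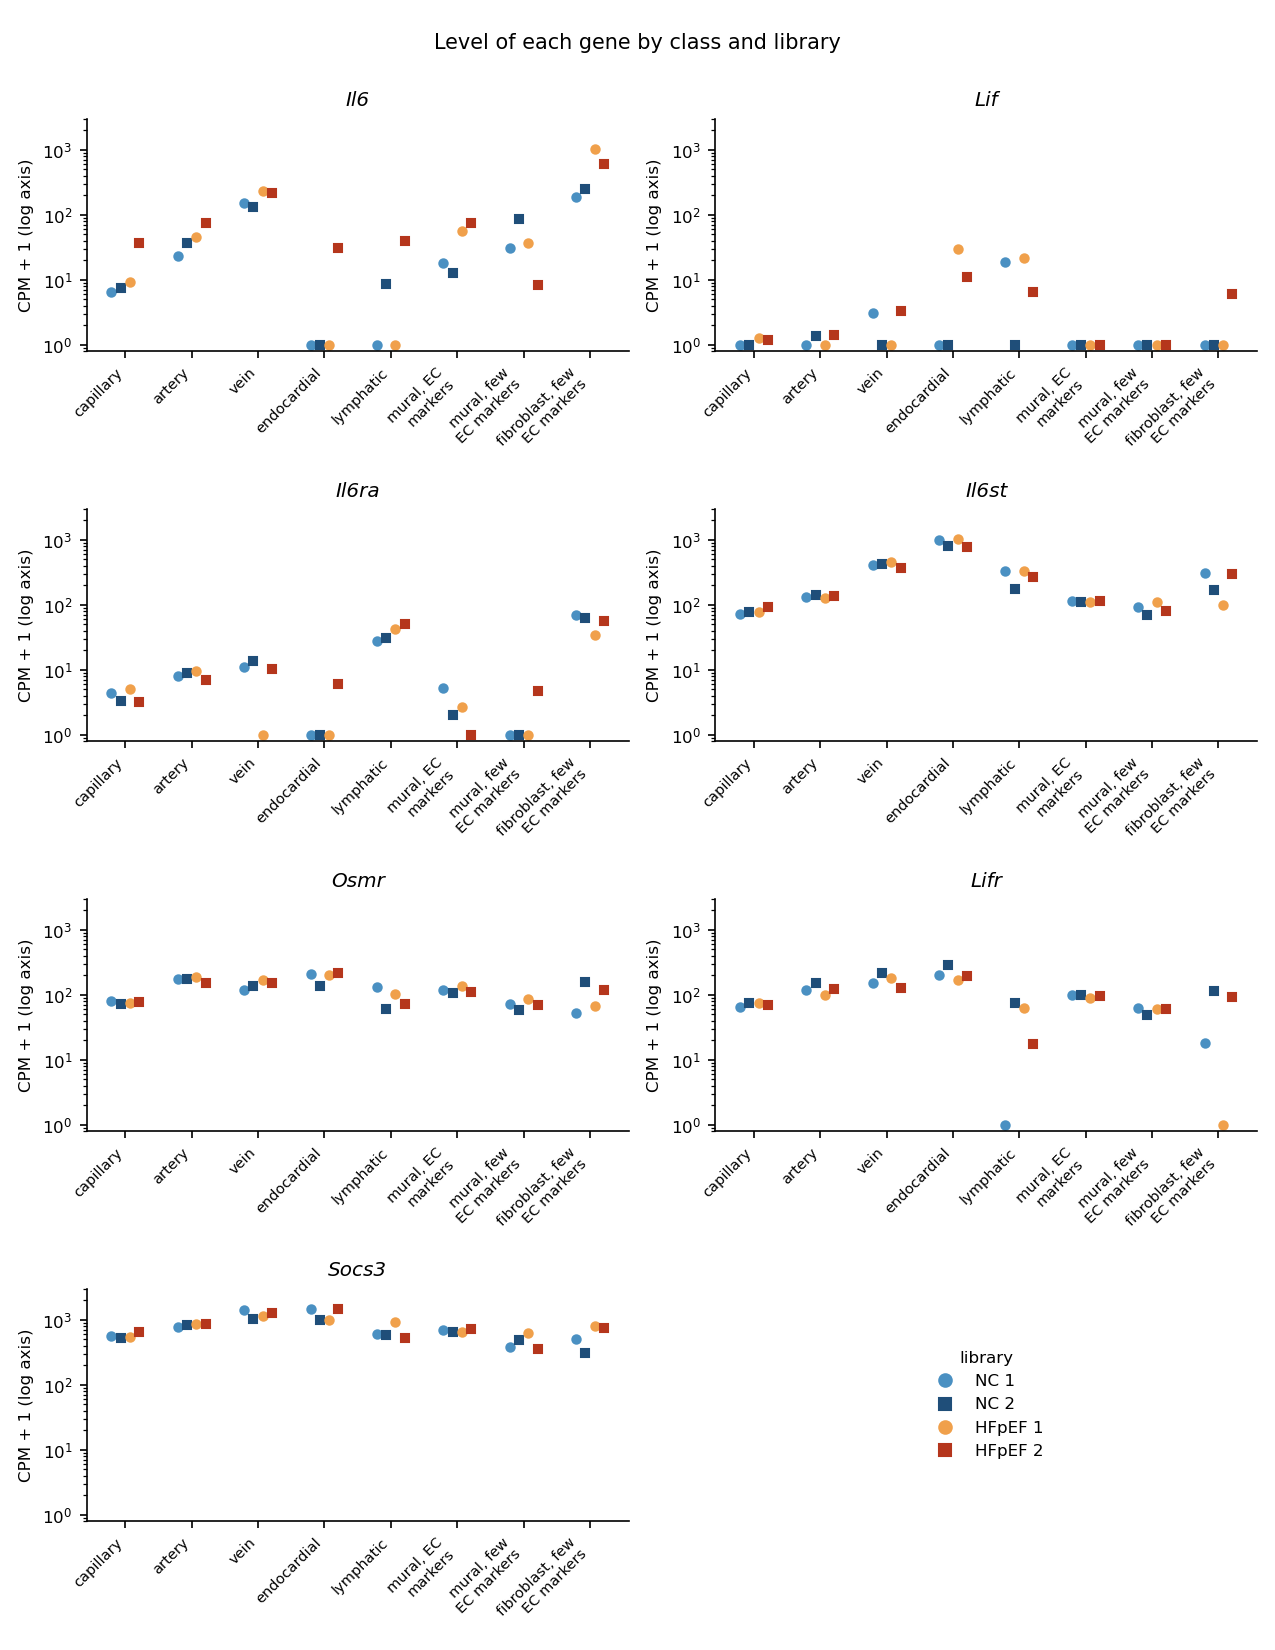
Level of each of the 7 genes (CPM + 1, log axis) in each cell class, 1 point per library (circles, library 1 of a diet; squares, library 2; blue, NC; orange and red, HFpEF); a point at 1 is a count of 0. Il6 rises from capillary to vein ECs in all 4 libraries, with HFpEF library 2 at 36.0 CPM apart from the other capillary points, whereas Il6st reaches its top in endocardial ECs at 768 to 1028 CPM.

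Between the diets, Il6 was higher in both HFpEF libraries than in both NC libraries in capillary, artery, vein and mural cells and in all ECs, a pattern that the choice of the gene used. Its log2 fold change in capillary ECs was 2.02 (SE 0.53), but it fell to 0.52 without HFpEF library 2, and the counting interval of HFpEF library 1 (6.32 to 10.7 CPM, 95% Poisson, counting error only) overlapped that of NC library 2 (5.38 to 7.54 CPM). Mural cells as a whole had 18.2, 19.7, 52.2 and 66.6 CPM in the 4 libraries. In artery ECs the log2 fold change was 1.12 (SE 0.24), in vein ECs 0.64 (SE 0.23) and in mural cells 1.71 (SE 0.23), and leaving out any 1 library kept it between 0.64 and 1.54, 0.56 and 0.70, and 1.49 and 1.82. Among mural cells the order by diet was seen in those that also held endothelial markers, at 17.4 and 11.8 CPM in NC against 54.5 and 75.0 CPM in HFpEF, while those with few overlapped between the diets.

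As background to these values, the same fits called 0.0161% of 12415 genes between the diets in capillary ECs, 0.289% in artery ECs, 0.658% in mural cells, 0.00763% in all ECs and 0% in vein ECs (0 of 5874 genes by edgeR's quasi-likelihood test, 447 at an unadjusted p under 0.05). Non-overlapping values with HFpEF the higher were found for 22.7% of the genes in capillary ECs, 19.3% in artery ECs, 19.1% in vein ECs, 17.8% in mural cells and 23.2% in all ECs. Cell number and hemoglobin-rich cells moved with HFpEF library 2 and depth per cell with the diet. Within capillary ECs the 7 capillary markers summed to 9424, 9148, 7240 and 6819 CPM in NC 1, NC 2, HFpEF 1 and HFpEF 2, and 4 of the 7 were lower in both HFpEF libraries. The 4 neutrophil markers summed to 0.0938, 0.589, 2.39 and 10.1 CPM there, with Csf3r at 0, and the 4 hemoglobin genes to 535, 459, 1063 and 3193 CPM. The part of these lists in the Il6 values was not tested. The log2 fold change of Il6 in capillary ECs was 2.01 with cells thinned to 1000 UMIs, those with fewer left out, and 2.00 without hemoglobin-rich cells.

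Il6 was found in few cells of a class at a time. After thinning, 0.407% and 0.454% of NC capillary ECs and 0.517% and 2.29% of HFpEF capillary ECs held an Il6 UMI (20, 21, 16 and 240 cells), and only the interval of HFpEF library 2 (2.02% to 2.60%, 95% Clopper-Pearson, counting error only) was apart from the other 3. In artery ECs the shares were 2.58%, 1.92%, 3.61% and 3.71%, and in vein ECs 8.33%, 7.32%, 10.7% and 12.1%, where the intervals of the 4 libraries overlapped. Without thinning, the pooled shares were 2.77%, 6.60% and 18.7% in capillary, artery and vein ECs, at median depths of 2373, 2377 and 3253.5 UMIs.

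In B cells among the sorted cells, which are not expected to make much Il6, no Il6 was seen in 89 thinned cells (0 of 89, median depth before thinning 3575 UMIs), which allows a share of up to 3.37%. That limit lies above the capillary shares and the NC artery shares, and below those of vein ECs. These B cells thus cannot tell the capillary or the NC artery shares from a background of free RNA. Between the classes, within each library, the interval of capillary ECs ended below that of artery ECs. In HFpEF library 2 the capillary interval ended at 2.60% where that of artery ECs began at 2.84%. Artery and vein intervals were apart in HFpEF library 2 and overlapped in the other 3.

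The UMIs of Il6 were also bunched within cells. In thinned vein ECs the variance of the Il6 count over its mean was 2.61, 1.90, 1.76 and 3.40, where independent counts would give values near 1. Cells with 2 or more UMIs held 81.3%, 70%, 55.6% and 75.8% of the Il6 UMIs. These shares rest on 16, 10, 9 and 62 UMIs, with 5, 3, 2 and 14 such cells. In capillary ECs such cells held 44.8%, 17.4%, 35.0% and 45.6% of 29, 23, 20 and 333 UMIs, with a highest count of 8 in a cell of HFpEF library 2. Vein ECs, 1.14% to 1.46% of the ECs, held 27.0% and 16.4% of all endothelial Il6 UMIs in NC and 20.2% and 8.82% in HFpEF, and capillary ECs held 41.7%, 44.5%, 33.1% and 52.5%. HFpEF library 2 had both the lowest venous and the highest capillary part.

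**Figure D2:**
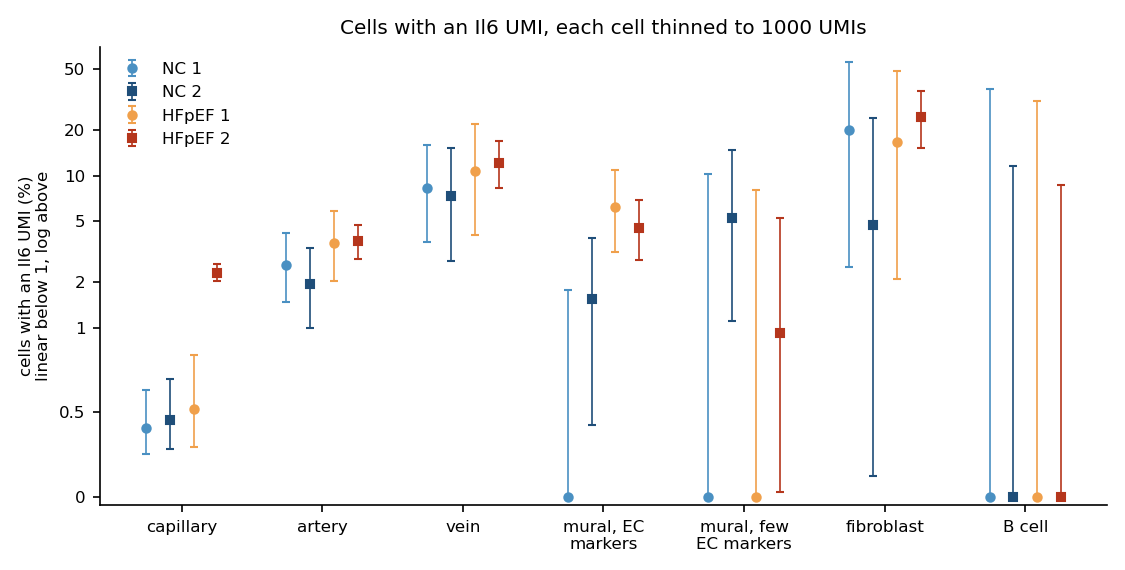
Share of cells with an Il6 UMI (%, scale linear below 1 and log above) after thinning to 1000 UMIs, by class and library. Cells with fewer than 1000 UMIs were left out. Bars are 95% intervals (Clopper-Pearson) for counting error alone. Shares climb from capillary to artery to vein ECs, HFpEF library 2 lies at 2.29% in capillary ECs against 0.407% to 0.517% in the other libraries, and all 4 B cell shares are 0.

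Lif, the second ligand, was near the limit of detection. All 37286 ECs held 24 Lif UMIs, 4 and 1 in NC and 4 and 15 in HFpEF, of which capillary ECs had 0, 0, 2 and 6. Lymphatic ECs held 2, 0, 1 and 1 and endocardial ECs 0, 0, 1 and 2, although both classes are small. Mural cells had 0 Lif UMIs in each library, which allows up to 1.95, 1.31, 4.47 and 1.37 CPM.

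Il6ra, the chain that lets a cell answer Il6 directly, was sparse in blood vessel ECs and higher in lymphatic ECs and fibroblasts. Capillary ECs had 3.33 and 2.31 CPM in NC against 4.08 and 2.23 CPM in HFpEF, and artery ECs had 6.88, 8.06, 8.49 and 6.01 CPM. Vein ECs had 10.1 and 12.7 CPM in NC against 0 and 9.42 CPM in HFpEF, from 5, 5, 0 and 8 UMIs, where the 0 allows up to 19.2 CPM. Lymphatic ECs had 26.4, 30.1, 41.1 and 49.1 CPM, a mean log2 ratio to the capillary ECs of the same library of 3.22 ± 0.54 (SD, n = 4), and fibroblasts with few endothelial markers had 67.6, 61.8, 32.7 and 56.0 CPM (3.78 ± 0.71).

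In both classes the Il6ra values of the 4 libraries lay above every capillary value, but they rest on 2 to 9 UMIs per library in lymphatic ECs and 1 to 11 in fibroblasts. Between the diets the Il6ra ranges overlapped in capillary and artery ECs, and the log2 fold change in capillary ECs was 0.04 (SE 0.37).

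Il6st, which encodes the gp130 chain that every ligand of the family uses, was measured in each class and was highest in endocardial ECs. Nearly all cells of that class also held a fibroblast marker UMI. In endocardial ECs Il6st stood at 1006, 803, 1028 and 768 CPM in the 4 libraries, against 70.1, 76.9, 77.7 and 93.1 CPM in capillary ECs. The mean log2 ratio within libraries was 3.48 ± 0.36 (SD, n = 4). Vein ECs came next, with 414, 421, 449 and 373 CPM, and their values did not overlap those of endocardial ECs above or of lymphatic ECs (335, 173, 329 and 267 CPM) below. Artery ECs had 130, 142, 126 and 135 CPM.

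Mural cells with endothelial markers lay between 109 and 115 CPM of Il6st and those with few between 69.0 and 108 CPM, the latter within reach of the capillary values. After thinning, 54.4% of endocardial ECs held an Il6st UMI (pooled, 45.7% to 63.0%, 95% Clopper-Pearson) against 7.77% of capillary ECs (7.43% to 8.12%) and 5.62% of B cells (1.85% to 12.6%), at median depths of 4145, 2373 and 3575 UMIs. The capillary share thus lay inside the B cell interval, and whether B cells make Il6st themselves was not tested. In capillary ECs both HFpEF libraries were above both NC libraries by narrow steps, as was true for 22.7% of all genes tested there. The log2 fold change of Il6st was 0.23 (SE 0.12), and in artery and vein ECs the diets overlapped.

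Osmr, the oncostatin M receptor chain, and Lifr, the Lif receptor chain, were lowest in capillary ECs among the blood-facing classes. Osmr had 80.6, 72.3, 75.0 and 77.1 CPM in capillary ECs, 174, 176, 188 and 152 CPM in artery ECs, 117, 135, 167 and 153 CPM in vein ECs and 207, 134, 200 and 212 CPM in endocardial ECs. The capillary values were below all others of these 4 classes, and the artery, vein and endocardial ranges overlapped each other. Its diet log2 fold change in capillary ECs was 0.00 (SE 0.11).

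Lifr had 63.1, 73.0, 73.2 and 69.4 CPM in capillary ECs, 116, 151, 98.1 and 121 CPM in artery ECs, 153, 214, 179 and 127 CPM in vein ECs and 202, 292, 171 and 192 CPM in endocardial ECs. Neighbours in that order overlapped apart from capillary and artery ECs, and lymphatic ECs had 0, 10, 3 and 3 UMIs (0, 75.2, 61.7 and 16.4 CPM). The diet log2 fold change of Lifr in capillary ECs was 0.08 (SE 0.11).

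Socs3, the inhibitor that STAT3 induces, was counted in a large share of all ECs. Capillary ECs had 572 and 527 CPM in NC against 547 and 658 CPM in HFpEF, and artery ECs 766, 827, 873 and 851 CPM. Vein ECs had 1432, 1042, 1153 and 1271 CPM and endocardial ECs 1462, 1010, 999 and 1481 CPM, the highest classes, whose ranges overlapped each other but not that of artery ECs. Mural cells had 633 to 680 CPM. After thinning, 32.1% to 41.2% of capillary ECs and 48.2% to 62.5% of vein ECs held a Socs3 UMI, against 15.7% of B cells.

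The diets overlapped for Socs3 in capillary, vein and mural cells. In artery ECs both HFpEF values were the higher, as was true for 19.3% of all genes tested there. The log2 fold changes were 0.14 (SE 0.12) in capillary, 0.14 (SE 0.13) in artery, -0.02 (SE 0.20) in vein and 0.05 (SE 0.14) in mural cells. The Socs3 promoter printed above holds the STAT letters, and the Il6 promoter does not.

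The members were also compared between vessel types, within libraries. The rule that chose them took their sums across these classes, so the estimates are given as a description, with no test, and nothing is read from the shares of all genes printed beside them. In a model with the library as a block (edgeR), the log2 fold change in artery against capillary ECs was 1.66 (SE 0.21) for Il6, 1.30 (SE 0.23) for Il6ra, 1.09 (SE 0.07) for Osmr, 0.76 (SE 0.08) for Lifr, 0.68 (SE 0.07) for Il6st and 0.46 (SE 0.06) for Socs3. All 6 estimates were thus above 0, in a fit of 11470 genes that called 17.2% of them higher and 31.7% in either direction.

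In vein against capillary ECs the estimates of the same 6 genes lay above 0 too, in a fit of 11142 genes that called 11.3% higher and 22.3% in either direction. Il6 had a log2 fold change of 3.74 (SE 0.17), or 13.4-fold, and Il6st, its signalling chain, 2.25 (SE 0.10). Il6ra had 1.69 (SE 0.50), Lifr 1.12 (SE 0.12), Socs3 0.97 (SE 0.08) and Osmr 0.77 (SE 0.12). The ligand, the shared receptor chain and the inhibitor each had a larger estimate in vein than in artery ECs and Osmr a smaller one, and the difference between these estimates was not tested.

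**Figure D3:**
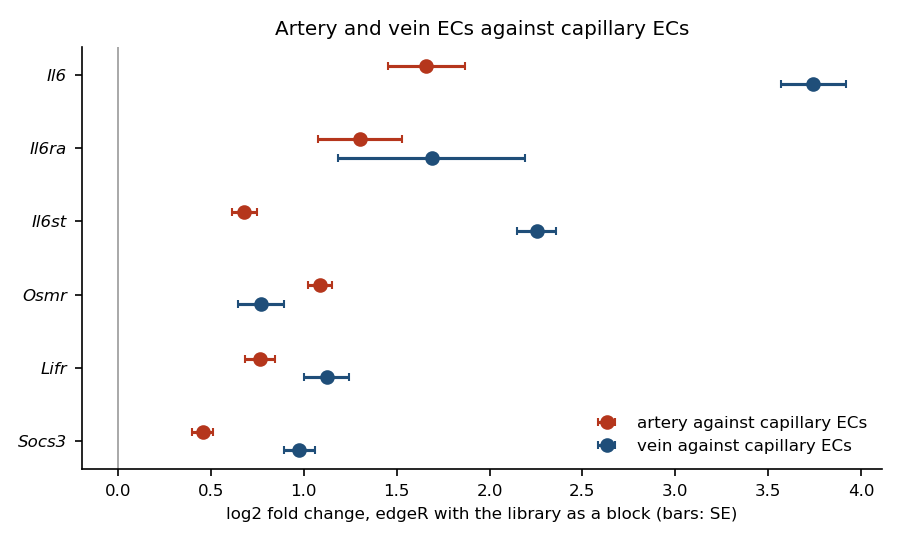
Log2 fold change of 6 genes in artery ECs (red) and vein ECs (blue) against capillary ECs, from edgeR with the library as a block; bars are 1 SE. All estimates lie above 0, Il6 at 1.66 and 3.74 and Il6st at 0.68 and 2.25 being the widest apart, and Osmr is the gene whose artery value, 1.09, exceeds its vein value, 0.77.

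With classes from clusters in place of the gate, a vein class several times larger gave log2 fold changes of 2.67 for Il6, 1.08 for Il6st, 0.58 for Socs3, 0.28 for Lifr and 0.10 for Osmr. Without HFpEF library 2, Il6 was 4.53 in vein and 2.25 in artery ECs, and after thinning Il6ra was 0.86 in artery ECs.

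Fibroblasts had the highest pooled Il6 level (478 CPM in those with few endothelial markers, against 184 CPM in vein ECs), with ranges that overlapped. The sum of the 7 fibroblast markers in vein ECs was 586, 40.8, 1012 and 195 CPM in NC 1, NC 2, HFpEF 1 and HFpEF 2, against 7.18 to 10.7 CPM in capillary ECs and 15452 to 27676 CPM in fibroblasts. In vein ECs 3 of the 7 markers, Col1a1, Col3a1 and Tcf21, were at 0 in all 4 libraries, and the sums came from Pdgfra, Dcn, Lum and Dpt. The 6 vein markers summed to 3281, 3122, 3178 and 3196 CPM in vein ECs and to 3472, 2777, 3242 and 1828 CPM in fibroblasts. Vein markers alone thus did not part these classes. The gate also asked for endothelial markers, which summed to 800 to 2170 CPM in fibroblasts. When every cell with a UMI of any fibroblast marker was left out, a step chosen after these values were seen, vein ECs still had 174, 141, 268 and 242 CPM of Il6, and the log2 fold change against capillary ECs was 3.93 for Il6 and 2.17 for Il6st.

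The rest of the pathway was read from 48 genes: other ligands of the family, receptors and the proteases that shed them, JAK kinases, STAT factors, inhibitors, genes known as STAT3 targets and proteins that bind Il6 mRNA. Between the diets none of them passed edgeR's test, and DESeq2 was run for capillary ECs alone. Of the 38 tested in capillary ECs, 0 were called by edgeR's quasi-likelihood test (8 at an unadjusted p under 0.05), where DESeq2 called 1 of 36 higher, Cebpb, and 0 lower. Of the 36 tested in artery ECs, the 30 in vein ECs and the 34 in mural cells, edgeR also called 0, with 7, 4 and 9 at an unadjusted p under 0.05. The median log2 fold change of the list in capillary ECs was 0.11, and that of all genes -0.003.

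Cebpb, Cebpd, Adam17, Rc3h1 and Bcl3 were among the 6 of these genes with the largest log2 fold changes at 10 CPM or more in capillary ECs. Cebpb, a transcription factor that also binds the Il6 promoter, had 68.3 and 64.8 CPM in NC against 85.9 and 115 CPM in HFpEF (log2 fold change 0.61, SE 0.14, edgeR adjusted p = 0.161). Adam17, the protease that sheds Il6ra, had 42.1 and 43.2 against 47.0 and 63.3 CPM (0.40, SE 0.14, edgeR adjusted p = 0.239). For both genes the HFpEF and NC values did not overlap, HFpEF being higher, as was true for 22.7% of all genes tested.

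Rc3h1, which encodes Roquin-1, a protein that destabilises Il6 mRNA, had 64.8 and 69.6 CPM in NC against 78.7 and 94.7 CPM in HFpEF (log2 fold change 0.38, SE 0.12, edgeR adjusted p = 0.202). Bcl3 had 53.3 and 46.7 against 46.9 and 78.2 CPM (0.35, SE 0.21, edgeR adjusted p = 0.434), and without HFpEF library 2 its estimate was -0.06. Cebpd, an acute-phase transcription factor and a known STAT3 target, had 742 and 509 against 420 and 512 CPM (-0.41, SE 0.19, edgeR adjusted p = 0.329). The diets overlapped for Bcl3 and Cebpd.

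Between vessel types many of the 48 did pass it. In vein against capillary ECs, edgeR called 21 of the 38 tested higher and 1 lower, with a median log2 fold change of 0.54 against -0.05 over all genes and 11.3% of all genes called higher. Of the 13 known STAT3 targets 12 were higher, with a median of 1.13, and Junb was not called. The gene lists were chosen with earlier results of these data known, so these counts describe the lists in these data only. DESeq2 called 17 of the 38 higher and 0 lower. The edgeR p-values of this contrast come from a fit that pulled the spread of all genes almost to a common value (228 prior degrees of freedom, against 4.67 to 20.6 in the other fits).

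Lrg1, which encodes a secreted glycoprotein of vessels, stood at 773, 275, 199 and 595 CPM in vein ECs against a mean of 4.58 CPM in capillary ECs, a log2 fold change of 6.65 (SE 0.14, edgeR adjusted p = 8.57e-119). Every vein value was thus far above the capillary mean, and the libraries of each diet differed from one another. Serpina3n, an acute-phase protease inhibitor, had 260, 25.5, 6.41 and 95.4 CPM against a mean of 1.07 (6.26, SE 0.32, edgeR adjusted p = 5.55e-49), and Timp1, an inhibitor of matrix proteases, 20.2, 2.55, 0 and 8.24 CPM against 0.161 (5.77, SE 0.83, edgeR adjusted p = 5.78e-10). These 2 were carried mainly by NC library 1 and HFpEF library 2.

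The growth regulator Myc had 92.9, 56.1, 160 and 89.5 CPM in vein ECs against a mean of 7.82 in capillary ECs (log2 fold change 3.44, SE 0.22, edgeR adjusted p = 2.79e-36). Bcl3, a regulator of NF-kB, had 113, 99.4, 167 and 181 CPM against 56.3 (1.13, SE 0.13, edgeR adjusted p = 1.34e-14), and Cebpd had 1317, 963, 936 and 1008 CPM against 546 (0.85, SE 0.08, edgeR adjusted p = 2.21e-18). Bcl6 (1.54), Nfil3 (1.17), Il4ra (0.79), Pim1 (0.67), Cebpb (0.65) and Mcl1 (0.27) were the other targets called higher.

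Higher up the pathway, Stat3 itself had 289, 217, 384 and 297 CPM in vein ECs against a capillary mean of 168 (log2 fold change 0.65, SE 0.11, edgeR adjusted p = 6.79e-08) and Jak2 72.7, 53.5, 135 and 87.1 CPM against 37.4 (0.96, SE 0.17, edgeR adjusted p = 2.50e-07). The receptor chain Il27ra (1.01) and the shedding protease Adam10 (0.32) were also called higher, as were the inhibitors Socs2 (0.66) and Ptpn1 (0.58). Of the proteins that bind Il6 mRNA, Arid5a, which stabilises it, rose by 1.07, and Zc3h12a and Zfp36, which destroy it, rose by 0.68 and 0.49. Socs1 was the 1 gene called lower, at -0.34 (SE 0.13, edgeR adjusted p = 0.0385), and its estimate turned to 0.02 with classes from clusters.

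In artery against capillary ECs edgeR called 13 of 37 genes of the pathway higher and 4 lower, with a median of 0.15 and 17.2% of all genes called higher. Those higher were Clcf1 (1.70), Arid5a (1.48), Nfil3 (1.04), Lrg1 (0.91), Stat5a (0.65), Socs2 (0.50), Stat3 (0.46), Cish (0.45), Zfp36 (0.39), Bcl3 (0.38), Mcl1 (0.23), Junb (0.18) and Rc3h1 (0.18). Those lower included Zfp36l1 (-0.23), Jak1 (-0.21) and Zc3h12a (-0.21). Arid5a was higher in artery ECs of all 4 libraries, at 153, 171, 170 and 152 CPM against a capillary mean of 54.6. Of the STAT3 targets 5 of 12 were called higher, with a median of 0.16. DESeq2 called 11 higher and 3 lower.

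**Figure D4:**
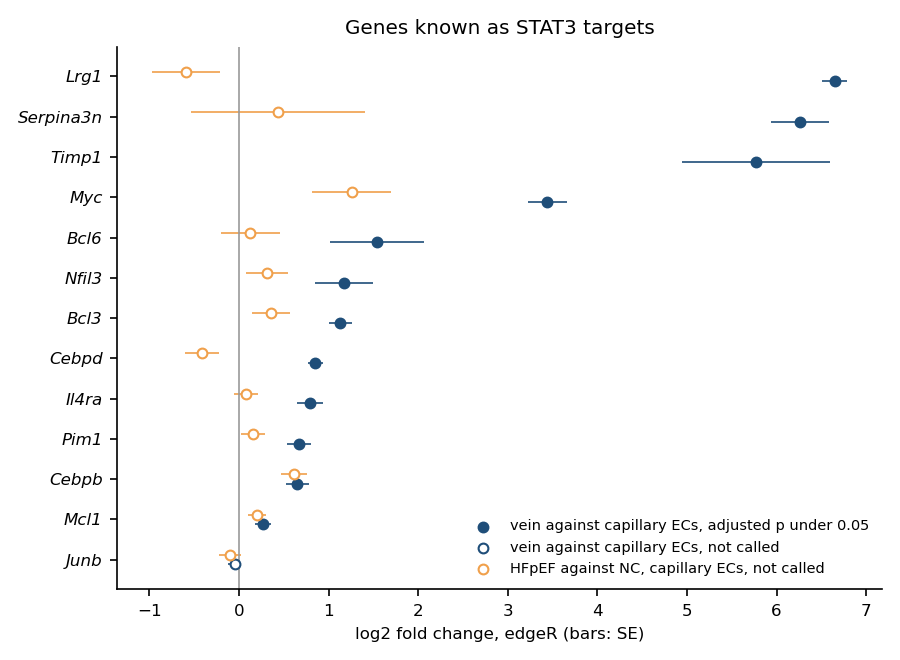
Log2 fold change of the 13 known STAT3 targets in vein against capillary ECs (blue; filled, called by edgeR; open, not called) and in HFpEF against NC capillary ECs (orange; open, not called); bars are 1 SE. Of the 13 vein values 12 are filled, from Mcl1 at 0.27 to Lrg1 at 6.65, whereas none of the diet values was called.

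Genes of the immediate early and heat shock response, which also rise when tissue is dissociated, were followed beside these results as a list of 12 that shares Junb with the targets. Their summed level was 26266 and 23318 CPM in NC capillary ECs and 31216 and 31680 CPM in HFpEF, and 28138, 28836, 30096 and 32438 CPM in vein ECs. Between the diets edgeR called 0 of the 12 in capillary ECs, with 2 at an unadjusted p under 0.05, where DESeq2 called Hspa1a and Hspa1b higher, and in mural cells edgeR called 2 higher. In vein against capillary ECs it called 3 of the 12 higher and 4 lower, and in artery against capillary ECs 6 higher and 1 lower. The list's part in the Il6 values was not tested.

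When thinned capillary ECs were put in 3 groups by their UMIs of these 12 genes (at most 19, 20 to 35, and above 35 of 1000), Il6 was higher in the high than in the low group of each library. It had 4.03, 6.0 and 8.76 CPM in the low, middle and high groups of NC library 1 and 1.35, 5.50 and 12.7 CPM in NC library 2. HFpEF library 1 had 1.11, 1.97 and 14.5 CPM and HFpEF library 2 11.9, 34.9 and 42.2 CPM. Within each group HFpEF library 2 was thus the highest, while HFpEF library 1 was the lowest in the low and middle groups. The groups rest on 1 to 17 Il6 UMIs each in the other 3 libraries. The high group held 25.6% and 20.4% of the NC cells and 38.0% and 38.8% of the HFpEF cells.

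Socs3 climbed over the same groups in all 4 libraries, from 207 to 258 CPM in the low groups to 798 to 984 CPM in the high groups. In the low groups it stood at 258, 207, 219 and 246 CPM and in the high groups at 954, 984, 798 and 931 CPM. In the high groups both HFpEF values lay below both NC values, and in the low and middle groups the diets overlapped. Il6st, by contrast, had 65.5, 77.3, 84.4 and 99.1 CPM in the low groups and 68.5, 64.6, 61.2 and 80.7 CPM in the high groups.

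**Figure D5:**
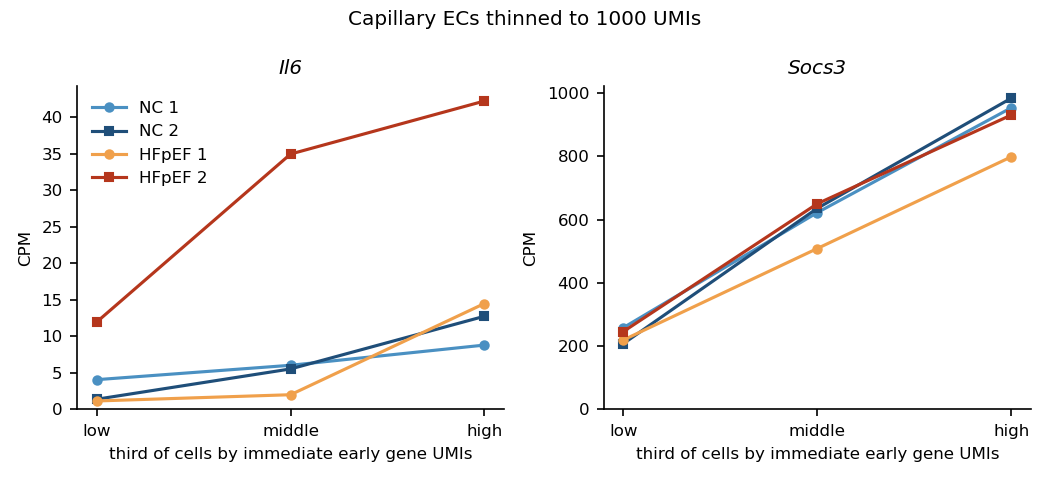
Level of Il6 (left) and Socs3 (right), in CPM, in capillary ECs thinned to 1000 UMIs and grouped by their UMIs of 12 immediate early and heat shock genes; 1 line per library. Socs3 climbs in all 4 libraries, to 798 to 984 CPM, while Il6 in HFpEF library 2 reaches 42.2 CPM in the high group and the other libraries 8.76 to 14.5 CPM.

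Capillary ECs that held an Il6 UMI after thinning, 297 cells, were compared with the other capillary ECs of their library, as a description. Socs3 was higher in them in 4 of 4 libraries, with 900 against 558 and 1095 against 498 CPM in NC and 1000 against 532 and 1025 against 646 CPM in HFpEF, a mean log2 ratio of 0.85 ± 0.22 (SD, n = 4). Stat3 (0.87 ± 0.37), Cebpb (1.08 ± 0.39), Cebpd (0.74 ± 0.31), Mcl1 (0.89 ± 0.31), Zfp36 (0.86 ± 0.22) and Arid5a (1.43 ± 0.63) were higher in 4 of 4 libraries too. Cish (1.28 ± 0.70) and Junb (0.58 ± 0.20) were as well. After thinning the rest of the 48 pathway genes were not higher in all 4. Stat5a, Pias3 and Clcf1 were higher in 0 of 4, from 0, 1 and 0 UMIs in the 297 cells. A count of 0 cannot give a ratio above 0, so nothing is read from these. Without thinning Jak1, Jak2, Socs1, Bcl3, Pim1, Il4ra, Nfil3, Lrg1 and Zc3h12a were also higher in 4 of 4. Of the genes higher in 4 of 4 after thinning, some had few UMIs in the cells with an Il6 UMI of NC 1, NC 2, HFpEF 1 and HFpEF 2. Cebpb had 2, 3, 4 and 56, Arid5a 2, 3, 3 and 28 and Stat3 7, 7, 3 and 73. The summed immediate early and heat shock list was higher in 4 of 4, at 0.51 ± 0.18, while the endothelial markers were lower in 4 of 4, at -0.24 ± 0.13. The capillary markers were lower in 4 of 4 as well, at -0.27 ± 0.29. The vein markers were higher in 3 of 4, from 23 UMIs with 0 in NC library 2. Without thinning they were higher in 4 of 4, at 0.74 ± 0.41. The part of vein-like cells in the ratios of this paragraph was not tested.

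Among the receptor chains after thinning, Il6st was higher in 1 of 4 libraries (-0.16 ± 0.67, from 41 UMIs), Lifr in 2 (0.10 ± 0.67, from 18 UMIs), Osmr in 3 (from 32 UMIs, with 0 in NC library 2) and Il6ra in 2 (from 2 UMIs). Without thinning, in 743 cells, the ratio was 0.78 ± 0.24 for Socs3, higher in 4 of 4 libraries, and 0.42 ± 0.24 for Il6st, also in 4 of 4. Without thinning Il6ra (1.09 ± 0.56) and Osmr (0.31 ± 0.23) were higher in 4 of 4 libraries as well, and Lifr (-0.31 ± 0.39) in 0 of 4. Cells with an Il6 UMI were the deeper ones, with a median of 4761, 5928, 2028 and 2500 UMIs before thinning against 3841, 4187.5, 1901 and 2055 in the others, and the part of depth in these ratios was not tested.

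Across the 12 sums of capillary, artery and vein ECs by library, the genes whose log2(CPM + 1) was most like that of Il6, among 7919 genes at 10 CPM or more, were Rgs16 (Pearson r = 0.98), Tbl1xr1 (0.97), Atp2a2 (0.97), Ifrd1 (0.96) and H2-Ab1 (0.96). Rgs16, a brake on G protein signalling, had a mean of 385 CPM in vein and 83.2 CPM in capillary ECs. Those most like Socs3 were Bhlhe40 (0.99), Sptlc2 (0.98), Thsd7a (0.97), Atp2a2 (0.97) and Lgmn (0.97). Among the members, Socs3 came 15th and Il6st 31st in likeness to Il6, with r of 0.94 and 0.93, and Osmr 910th with 0.63. The 12 points share 4 libraries and their depths, so these are descriptions, and Lif was too low to be ranked.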

How the data were processed

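Single cells were sorted as RFP-positive cells of the left ventricle and sequenced with the 10x Genomics 3′ chemistry; per the labels, reads were handled with fastp and Cell Ranger 5.0.1 on mm10. The authors deposited filtered UMI counts per gene and cell for 4 libraries, and all values here were computed from those counts. Cells with more than 200 genes and under 20% mitochondrial UMIs were kept (40154 of 41843; 42 fell below the first limit and 1669 above the second). Endothelial cells needed 2 of 8 markers and fewer than 3 markers of any other cell type; vessel classes followed marker shares (capillary: artery share under 20% and vein share under 10%; artery: at least 30%; vein: at least 20%; 2 markers of the class each), and other cells needed 3 markers of theirs. Doublets were not removed in the main results; Scrublet's 4491 highest scores were left out in an alternative.

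UMIs were summed per library and class. Differences were tested with edgeR 4.0.16 (R 4.3.3, TMM, filterByExpr, quasi-likelihood test, Benjamini-Hochberg adjusted p under 0.05), the diets without covariates and the vessel types with the library as a block. DESeq2 1.42.0 was an alternative. Only the edgeR fit between the diets in capillary ECs was run on simulated data, and the fits between vessel types were not. In the fits that leave a diet with 1 library, its spread is assumed to be that of the others. Intervals are 95% Clopper-Pearson or Poisson, and a count of 0 allows up to 3 counts; both cover counting error only. The log2 ratios between cells within a library add 1 CPM to both levels. Promoters came from RefSeq (GRCm38.p6) and coordinates from GENCODE vM21, which held 99.5% of the 31253 gene identifiers.

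The members and all gene lists were chosen with earlier results of these data known. Named were the 7 members, any pathway gene called in a fit, the 6 with the largest diet change in capillary ECs at 10 CPM or more, and the 5 genes most like Il6 and Socs3. An item withheld from the text is not reported here.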

Additional observations from a re-analysis of the deposited data

How the results depend on the processing

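Without HFpEF library 2 the diet difference of Il6 in capillary ECs fell to a log2 fold change of 0.52, and over the other leave-outs and settings it lay between 1.74 and 2.60. The genes called between the diets over all genes were few and moved with the settings. In capillary ECs, 2 became 1 with classes from clusters, 26 after thinning, 934 without the filter on low counts, 199 with DESeq2 and 28 to 376 when 1 library was left out. Leaving out 1 library gave 31 to 267 calls in artery ECs (29 with all), 4 to 56 in vein ECs (0), 1 to 19 in mural cells (66) and 18 to 109 in all ECs (1). With the replicate block the counts were 188 in capillary, 52 in artery, 21 in vein, 150 in mural and 143 in all ECs; libraries of the same number did not deviate together (r = 0.0344 over 12415 genes), so the pairing is by number only. Between artery and capillary ECs 3632 calls became 2233 after thinning and 2060 with no replicate block, and between vein and capillary ECs 2482 became 1212 after thinning. Among the pathway genes called or named by size, estimates changed sign for Bcl3 between the diets (-0.064 without HFpEF library 2, up to 0.638 over the leave-outs) and for Socs1 in vein ECs (0.017 with classes from clusters). Among the members, the diet estimates in capillary ECs changed sign over the leave-outs for Il6ra (-0.35 to 0.56), Osmr (-0.08 to 0.09) and Lifr (-0.02 to 0.18). Some members other than Il6 did so in other classes, as Socs3 in vein ECs (-0.22 to 0.18). The causes were not tested. The vein log2 fold change of Il6 lay between 2.67 and 4.53 over 15 alternatives and the artery one between 1.41 and 2.25. The leave-outs and block outside capillary ECs, and the step without fibroblast markers, were chosen after seeing the data. Depth limits Lif, Il6ra and the endocardial and lymphatic values of Il6.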
